A study of Mus musculus with 7 samples.

Results

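The hairpin mmu-mir-21 is 1 of 826 mouse miRNA hairpins that received tags in 7 small RNA libraries of HL-1 cells. It was taken by name, and every deposited tag was placed on all hairpins by its best ungapped hit with at most 2 mismatches. The hairpin collected 730595 of the 41074578 placed tags, of which 728876 lay on the 5′ arm (miR-21-5p) and 1719 on the 3′ arm (miR-21-3p). HL-1 is a line of mouse atrial cardiomyocytes that divide in culture and contract as the culture fills. Untreated cells were sampled after 1, 2, 3 and 4 days in culture, and an independent repeat of the time course gave libraries of days 1, 3 and 4 from both time courses and of day 2 from time course 2 alone. All libraries come from this single cell line and were sequenced on the SOLiD platform.

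A miRNA hairpin is cut from its long transcript by Drosha, the nuclear RNase that sets the base of the stem, and then by Dicer, the cytoplasmic RNase that removes the loop. A strand of the resulting duplex is loaded into Argonaute and pairs with target mRNAs through its seed, bases 2 to 8. miR-21 is abundant in many tissues and tumours, and its known targets include Pdcd4, which restrains translation, and Spry1, which restrains receptor tyrosine kinase signalling. In the heart it is known as a miRNA that rises in stressed and fibrotic myocardium, where much of it is attributed to fibroblasts.

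The hairpin lies on chromosome 11 of GRCm38, chr11:86584067-86584158 on the minus strand, and is 92 nt long (GENCODE vM21). This interval falls within exon 12 of 12, chr11:86583865-86585451, of a transcript of Vmp1, the gene for vacuole membrane protein 1, which acts in autophagy. The annotated 3′ UTR part of that exon, chr11:86583865-86585310, contains the whole hairpin. Both mature sequences of RefSeq (GRCm38.p6) are shown because the ends of the tags are measured against them, with the seed in capitals.
mmu-miR-21a-5p: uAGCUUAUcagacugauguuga
mmu-miR-21a-3p: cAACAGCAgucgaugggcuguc
RefSeq names the miRNA miR-21a, and its 5p strand occupies chr11:86584120-86584141 and its 3p strand chr11:86584082-86584103. Among 1679 mature mouse miRNAs in the RefSeq table, 1 other, mmu-miR-21c, had the seed of miR-21-5p, and none had that of miR-21-3p. No tag was placed on the hairpins of miR-21b or miR-21c, which allows up to 0.0730 CPM (tags per 1000000 placed tags), but the deposited tags had been selected against miRBase version 16. Whether that version held these hairpins, or those of miR-3965 and miR-7024 named further on, was not tested, so a count of 0 on them may say nothing of the cells. Of 505 distinct tags on mir-21, 2 with 21 counts in all matched another hairpin equally well, so its counts hardly depend on how copies were shared out.

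The most abundant miR-21-5p tag was 1 base longer than the annotated miRNA. The 6 tags below carry the start and end variation described in the following paragraphs, and capitals mark bases of the hairpin outside the annotated 22 nt.
23 nt, annotated start: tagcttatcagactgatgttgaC
22 nt, annotated miRNA: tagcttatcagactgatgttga
24 nt, annotated start: tagcttatcagactgatgttgaCT
23 nt, start 1 base upstream: Atagcttatcagactgatgttga
22 nt, start 1 base downstream: agcttatcagactgatgttgaC
18 nt, 5′ flank: TGTACCACCTTGTCGGAt
The 23-nt tag, chr11:86584119-86584141, made up 75.6% ± 6.78 of miR-21-5p tags (SD, n = 7 libraries). The exact annotated miRNA made up 12.3% ± 5.45 and the 24-nt tag 3.05% ± 1.12 (SD, n = 7 each).

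**Figure D1:**
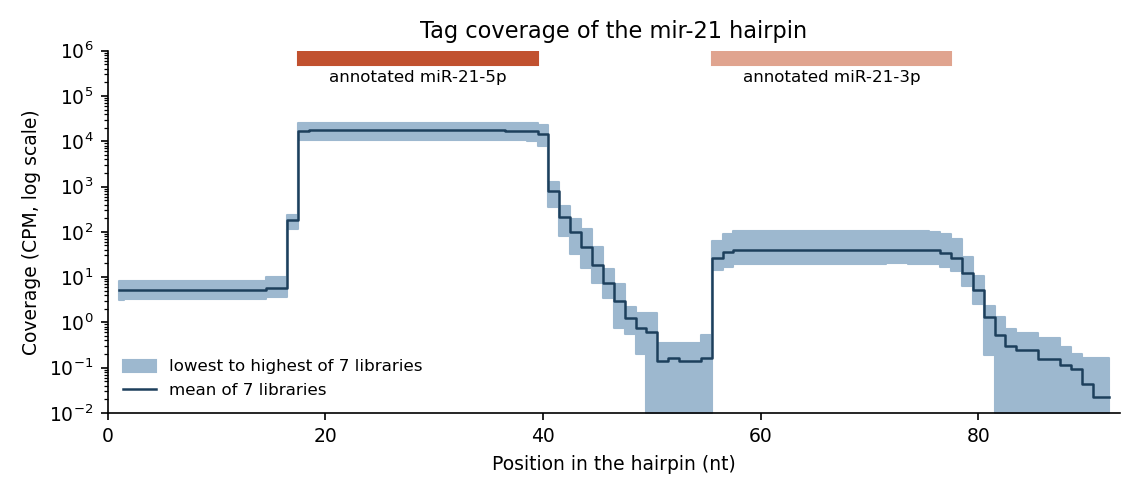
Coverage of the 92 positions of the mir-21 hairpin in CPM (log scale), as the mean of 7 libraries (line) and their lowest to highest value (band, with libraries at 0 drawn at the foot of the axis), with the annotated miRNAs marked above. Coverage reaches 17462 CPM over miR-21-5p and 40.4 CPM over miR-21-3p, falls to 0.141 CPM between them, and stays above 1 CPM in the bases 5′ of miR-21-5p.

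Each library held 4945093 to 6899411 tags, of which 99.6% to 99.8% were placed. Cardiomyocyte markers were abundant in every library, with mir-1 at 50437 to 72041 CPM, mir-133a at 25115 to 36259 CPM and mir-208a at 1315 to 4324 CPM, while mir-499, which belongs to the same list, stayed at 2.84 to 11.1 CPM. None of the 13 marker names stood at 0 in any library. The 3 fibroblast or mesenchymal names (mir-199a, mir-199b and mir-214) summed to 29.5 and 34.9 CPM in the day 4 libraries, against 27.0 and 38.2 CPM in the day 1 libraries. The 5 blood names summed to 45.7 to 72.7 CPM over all libraries. The endothelial marker mir-126 reached 871 and 922 CPM at day 4, against 483 and 664 CPM at day 1, and its part in the results below was not tested.

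miR-21-5p was among the most abundant miRNAs of these cells. It ranked 13th of 1460 hairpin arms by mean level, with 17468 ± 5227 CPM or 1.75% of placed tags (SD, n = 7). Its levels in time course 2 were 15496, 17337, 23150 and 14744 CPM on days 1, 2, 3 and 4. Those in time course 1 were 25794, 14973 and 10779 CPM on days 1, 3 and 4. The highest and the lowest library both belonged to time course 1, and the rank of miR-21-5p ran from 7th to 25th place. The arms next to it in mean level were miR-30c-1-5p, with 19151 ± 4205 CPM, and miR-15b-5p, with 16054 ± 2340 CPM (SD, n = 7 each), and neither mean differed from that of miR-21-5p by more than these SDs. The coefficient of variation of miR-21-5p over the libraries was 29.9%, the 39th largest of 150 arms with at least 1000 tags in every library, whose median was 21.1%.

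**Figure D2:**
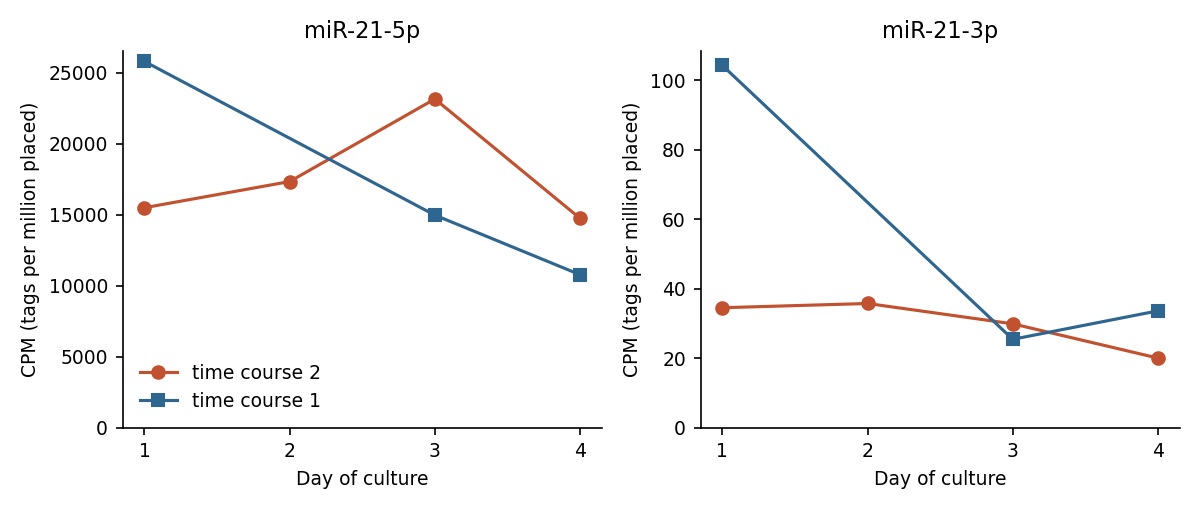
CPM of miR-21-5p (left) and miR-21-3p (right) by day of culture, each point 1 library, in time course 2 (circles) and time course 1 (squares). At day 3 the order of the time courses for miR-21-5p is the reverse of that at day 1, and the day 1 library of time course 1 holds the highest point of both panels.

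The passenger strand, miR-21-3p, was present at a small fraction of these levels. Time course 2 gave 34.5, 35.8, 29.9 and 20.1 CPM on days 1, 2, 3 and 4, and time course 1 gave 104, 25.5 and 33.6 CPM on days 1, 3 and 4. A single library, that of day 1 in time course 1, thus stood above the range of 20.1 to 35.8 CPM of the other 6. The 3p share of all mir-21 tags was 0.225% ± 0.0996 (SD, n = 7), and tags of the 5p strand outnumbered those of the 3p strand 248 to 774 times. In single libraries this share was 0.136% (95% Wilson interval 0.115 to 0.160) and 0.311% (0.267 to 0.362) at day 4 in time courses 2 and 1, against 0.222% (0.195 to 0.254) and 0.402% (0.374 to 0.433) at day 1. The share was lower at day 4 within each time course, but the ranges of the days overlap, since the day 4 library of time course 1 lies above the day 1 library of time course 2. Intervals of this kind cover counting error only, since reads of an amplified library are not independent molecules.

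The time course asks how miRNA levels change as sparse cultures that do not beat become dense cultures that do. CPM and the fold changes below are relative to the other placed tags, and do not give amounts per cell. By quantitative PCR of selected miRNAs, miR-21 not among them, the study reports a rise in overall miRNA abundance as the cells came to beat. It states that its sequencing data cannot show such a bulk change. The miRNAs it had picked as candidates for a fall decreased marginally in the same assay. Whether the amount of either strand per cell changed was not tested. In CPM, which are not TMM-scaled, both strands were lower in both day 4 libraries than in both day 1 libraries. Over all 798 arms tested, 27.3% were lower in this sense and 15.0% were higher. The TMM factors by which edgeR corrects library size were 0.938 and 0.945 at day 4 (time courses 2 and 1), against 1.02 and 1.10 at day 1. With these applied the values of the days overlap for both strands, so the order in CPM depends on the scaling. miR-21-5p was at 14744 and 10779 CPM at day 4, against 15496 and 25794 CPM at day 1. Its log2 fold change after TMM scaling was -0.51 (SE 0.34), with an adjusted p of 0.640 in edgeR's quasi-likelihood test. miR-21-3p was at 20.1 and 33.6 CPM at day 4, against 34.5 and 104 CPM at day 1. Its log2 fold change after the same scaling was -1.17 (SE 0.54, edgeR adjusted p = 0.532). Without the day 1 library of time course 1 the values were -0.17 for miR-21-5p and -0.26 for miR-21-3p. Neither strand passed the threshold of 0.05. In this fit edgeR called 0 of 798 arms (0%), with 85 arms at an unadjusted p under 0.05, while DESeq2 called 16. With the time course as a block, edgeR called 36 arms (4.51%), and miR-21-5p was at -0.53 (SE 0.28, adjusted p = 0.279) and miR-21-3p at -1.09 (SE 0.37, adjusted p = 0.0859).

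The intermediate days showed no steady course for miR-21-5p. Relative to day 1 its log2 fold change was -0.29 (SE 0.43) at day 2 and 0.05 (SE 0.34) at day 3, and that of miR-21-3p was -0.98 (SE 0.69) and -1.14 (SE 0.54), all with edgeR adjusted p of 0.847 or above. Between the time courses miR-21-5p differed by a log2 fold change of 0.15 (SE 0.23, edgeR adjusted p = 0.782) and miR-21-3p by -0.69 (SE 0.31, adjusted p = 0.172) in time course 2 relative to time course 1. In that comparison 79 of 798 arms (9.90%) were called and neither mir-21 strand was among them. The sign for miR-21-5p was not stable, since it turned negative (-0.11 to -0.02) when either library of day 3 or either library of day 4 was left out. For the 3p share of the hairpin, limma gave a log2 odds difference of -0.54 (SE 0.58, adjusted p = 0.804) at day 4 against day 1. Limma called 0 of 198 hairpins (0%) there, with 19 at an unadjusted p under 0.05, and 9 (4.55%) with the time course as a block, in which mir-21 had an adjusted p of 0.585.

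The 5′ end of miR-21-5p, which sets the seed, was held tightly. The annotated start accounted for 97.9% ± 0.371 of its tags (SD, n = 7), the start 1 base upstream for 1.05% ± 0.254 and the start 1 base downstream for 0.936% ± 0.139. The commonest start had a mean share of 97.9%, which ranked 85th of the 150 abundant arms, whose median was 98.2%. The upstream start would give the seed UAGCUUA, which no other mature miRNA of the RefSeq table shares, and the downstream start the seed GCUUAUC, found in mmu-miR-3965, whose hairpin received 0 tags, with the same limit as for miR-21c. The upstream start was used by 1.11% and 1.37% of tags at day 4 (time courses 2 and 1), against 0.733% and 0.727% at day 1. These values do not overlap, as was the case for 18.8% of all 3360 end forms in the upward direction and for 20.1% in the downward direction, and the limma log2 odds difference of 0.76 (SE 0.27) had an adjusted p of 0.712.

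The 3′ end was less fixed, but still concentrated at base 23. Tags ending at base 23 made up 78.0% ± 7.78 of miR-21-5p (SD, n = 7), those ending at base 22, the annotated end, 13.7% ± 5.78, those ending at base 24 3.35% ± 1.25 and those ending at base 21 1.63% ± 0.665. The 23-nt and 24-nt tags printed above match the hairpin in every base. No deposited miR-21-5p tag differed from the hairpin in its last 2 bases, so this match cannot tell templated from added bases. The share at base 23 exceeded that at base 22 by 64.3 ± 13.5 percentage points and was higher in 7 of 7 libraries. An exact two-sided sign-flip permutation test gave p = 0.0156, the smallest that 7 libraries allow, and an adjusted p of 0.0234. The study had already reported abundant miR-21 species 1 base longer than annotated, so the direction was known before the test. The test takes the libraries as independent, although those of the same time course deviated together. A commonest 3′ end with 78.0% of tags was the 7th highest value of the 150 abundant arms, whose median was 47.4%. Its mean tag length of 22.8 nt was the 37th longest among them.

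The 3′ end depended on the 5′ start. Tags that began 1 base upstream ended at base 22 in 73.5% ± 4.77 of cases and at base 23 in 16.5% ± 5.69. Tags with the annotated start ended at base 22 in 13.1% ± 5.69 and at base 23 in 78.7% ± 7.69 of cases (SD, n = 7 libraries each). Both kinds of tag were thus mostly 23 nt long. Tags that began 1 base downstream ended at base 22 in 12.3% ± 5.98 and at base 23 in 77.9% ± 8.30 of cases, and were mostly 22 nt long. The difference in the share at base 22 between upstream and annotated starts was 60.4 ± 2.91 percentage points, above 0 in 7 of 7 libraries (exact sign-flip p = 0.0156, adjusted p = 0.0234 over 3 within-library differences). Between downstream and annotated starts it was -0.75 ± 3.34 percentage points, ranging from -7.04 to 4.09 (exact sign-flip p = 0.625). Both comparisons were chosen after their values were seen, and their tests also take the libraries as independent. The upstream start rests on 707 to 1329 tags a library and the downstream start on 507 to 1482.

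**Figure D3:**
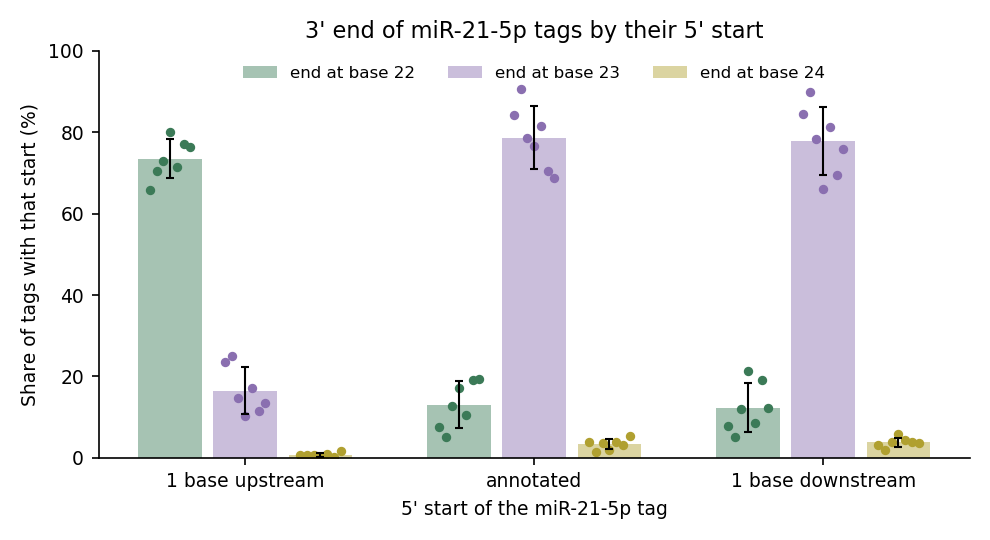
Share (%) of miR-21-5p tags that end at base 22, 23 or 24, for tags that start 1 base upstream of the annotated start, at it, or 1 base downstream. Bars are means of 7 libraries, error bars SDs and points single libraries, and base 22 leads with 73.5% in the upstream group while base 23 leads with 78.7% and 77.9% in the others.

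Between day 1 and day 4 the shares at bases 22 and 23, but not that at base 24, differed in the same direction in both time courses, and none of the 3 passed the test over all forms. Of miR-21-5p tags in time course 2, 5.51%, 13.5%, 11.2% and 19.9% ended at base 22 on days 1, 2, 3 and 4. The shares in time course 1 were 7.95%, 17.96% and 19.8% on days 1, 3 and 4. The day 4 libraries were therefore above both day 1 libraries, and the 4 values of days 1 and 4 did not overlap, as for 18.8% of all forms in this direction. The share at base 23 was 90.1%, 77.6%, 80.8% and 68.1% on days 1, 2, 3 and 4 of time course 2, and 83.9%, 75.8% and 69.5% on days 1, 3 and 4 of time course 1, with both day 4 libraries below both day 1 libraries, as for 20.1% of all forms. The limma log2 odds difference of day 4 against day 1 was 1.81 (SE 0.38, unadjusted p = 0.00368) for base 22 and -1.64 (SE 0.37, unadjusted p = 0.00484) for base 23, the 12th and 19th smallest of 3360 p-values. After adjustment over all forms both had a limma adjusted p of 0.651, and of 0.394 with the time course as a block. Limma called 0 of 3360 forms (0%) in this comparison, with 220 at an unadjusted p under 0.05.

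Set against day over the 7 libraries, the share at base 22 gave Pearson's r = 0.91 (exact permutation p = 0.0111) and Spearman's rho = 0.92 (p = 0.00952), and the share at base 23 gave r = -0.91 (p = 0.00794) and rho = -0.92 (p = 0.00952). These belong to a family of 7 relations to day chosen after the values were seen, over which both Pearson p-values were 0.0389 when adjusted. Those permutations treat all libraries alike, although libraries of 1 time course deviated together. With values centred on their time course and only the order within each permuted (144 orders), r was 0.93 for base 22 and -0.91 for base 23, each with an exact permutation p of 0.0208 and an adjusted p of 0.0729, so neither relation passed the threshold over the family. Without the pair of day 1 libraries, r was 0.74 and -0.79 over 5 libraries (exact permutation p = 0.200 and 0.133), so the relations rest in part on day 1. Within the time courses the slope of the share at base 22 was 4.10 percentage points a day in both time course 2 and time course 1, and the slopes for base 23 were -6.28 (time course 2) and -4.67 (time course 1). In the same family the levels of miR-21-5p (r = -0.58, adjusted permutation p = 0.211) and miR-21-3p (r = -0.69, adjusted permutation p = 0.107) and the upstream start (r = 0.72, adjusted permutation p = 0.116) did not pass the threshold. Tags ending at base 24 (r = 0.42) and mean tag length (r = -0.75) did not pass it either, with adjusted permutation p of 0.357 and 0.111.

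**Figure D4:**
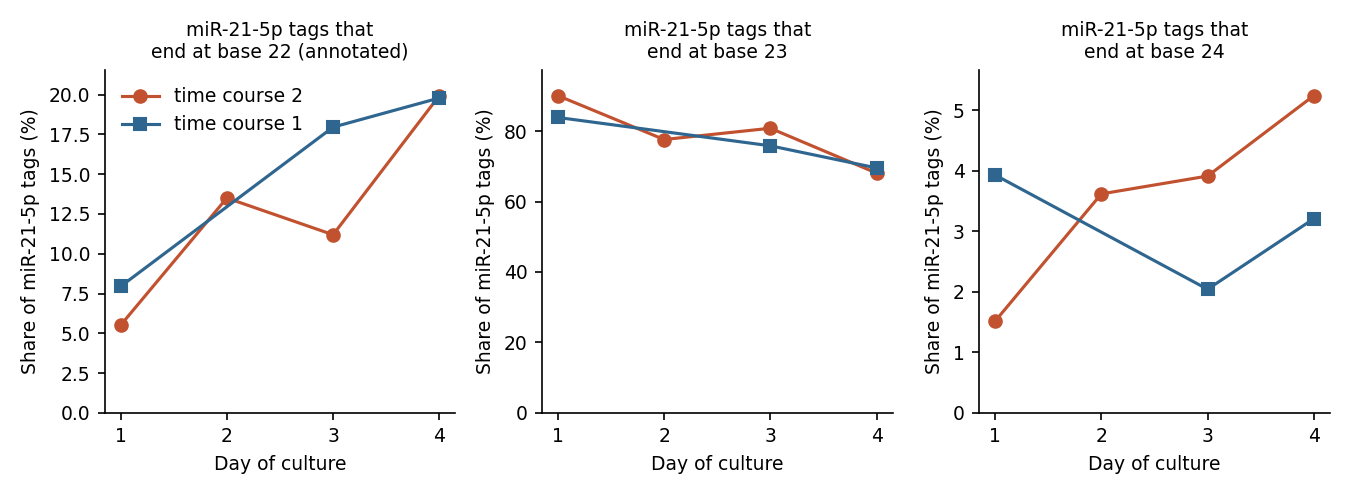
Share (%) of miR-21-5p tags that end at base 22 (left), base 23 (middle) and base 24 (right) by day of culture, each point 1 library, in time course 2 (circles) and time course 1 (squares). At base 22 both day 4 points, 19.9% and 19.8%, lie above the day 1 points, 5.51% and 7.95%, while at base 24 the time courses run in different directions from day 1.

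Many other arms also had shorter tags at day 4. Its mean tag length was below that of both day 1 libraries in both day 4 libraries, as was the case for 48 (32.0%) of the 150 abundant arms. The day 4 minus day 1 difference was -0.17 nt, against a median of -0.07 nt over those arms, and ranked 125th from the largest gain in length. Between the time courses the base 22 share differed by a log2 odds of -0.45 (SE 0.24) and the base 23 share by 0.38 (SE 0.25) in time course 2 relative to time course 1, with limma adjusted p of 0.425 and 0.504. Limma called 0 of 3360 forms (0%) in that comparison too, with 563 at an unadjusted p under 0.05.

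**Figure D5:**
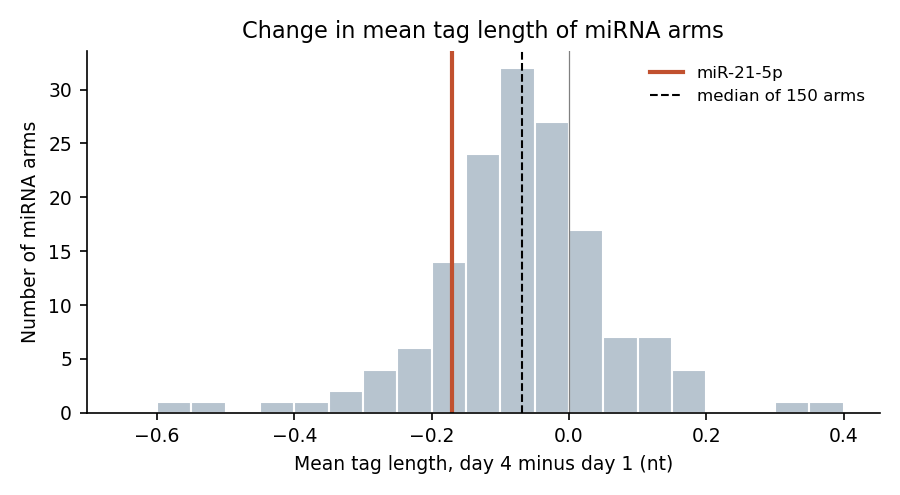
Histogram of the change in mean tag length, day 4 minus day 1 (nt), for the 150 arms with at least 1000 tags in every library. The solid line marks miR-21-5p at -0.17 nt and the dashed line the median of the arms at -0.07 nt.

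The 3p strand had looser ends at both sides. The annotated start of miR-21-3p held 67.6% ± 5.84 of its tags, the start 1 base downstream 19.0% ± 4.07 and that 2 bases downstream 12.2% ± 3.14 (SD, n = 7 each). Its 3′ ends were spread over base 21 (13.4% ± 2.90), base 22 (17.6% ± 4.01), base 23 (34.05% ± 5.03), base 24 (17.0% ± 2.99) and base 25 (10.3% ± 1.72). Each library contributed 137 to 709 miR-21-3p tags to these shares. The 4 tags below each held over 10% of the pooled tags, with bases beyond the annotated miRNA in capitals.
23 nt, annotated start: caacagcagtcgatgggctgtcT
22 nt, annotated miRNA: caacagcagtcgatgggctgtc
22 nt, start 1 base downstream: aacagcagtcgatgggctgtcT
21 nt, annotated start: caacagcagtcgatgggctgt
The annotated form held 14.0% ± 4.76 of miR-21-3p tags and the form 1 base longer 15.6% ± 3.77 (SD, n = 7), which do not differ beyond these SDs. The downstream starts would carry the seeds ACAGCAG and CAGCAGU. The second of these is shared in the table with mmu-miR-7024-3p, on whose hairpin no tag was placed, again with that limit.

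A predicted fold places these ends in the duplex. RNAfold paired 38 base pairs of the hairpin, with a minimum free energy of -46.2 kcal per mol. In that structure the commonest 3p start faces a base of miR-21-5p such that the 5p strand extends 2 nt beyond it when it ends at base 23, and 1 nt when it ends at base 22. At the base of the stem the commonest 3p end extended 3 nt beyond the partner of the 5p start. Base 22 of miR-21-5p was unpaired in the fold and base 23 was paired.

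A few tags came from the hairpin outside both miRNAs. The 5′ flank, taken as tags that end at or before base 2 of miR-21-5p, gave 209 tags, 0.0286% of the hairpin's. Of these 48.3% ended on the base directly before miR-21-5p and the rest 1 or 2 bases further. An 18-nt tag from the first base of the hairpin already ends at base 1 of miR-21-5p. The ends thus follow largely from the rule and from tag length, and do not locate a cut. The flank tags amounted to 3.53, 8.30, 5.01 and 7.56 CPM on days 1, 2, 3 and 4 of time course 2. In time course 1 they amounted to 3.38, 3.16 and 4.86 CPM on days 1, 3 and 4. Both day 4 libraries were above both day 1 libraries, as for 15.0% of arms by CPM. The loop gave 12 tags, 1 to 3 a library. Flank tags whose first base lies 1 position outside the annotated hairpin (111 tags in all) had the smallest unadjusted p of all 3360 forms, 0.000498, with a log2 odds difference of 2.16 (SE 0.30) at day 4 against day 1 and a limma adjusted p of 0.651. Its shares of miR-21-5p tags were 0.0335% and 0.0301% at day 4 (time courses 2 and 1), against 0.00829% and 0.00570% at day 1. The form is close to the minimum mean of 10 tags, and its first base, outside the hairpin, was not compared with any sequence. This form was singled out after its values were seen.

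Differences from the hairpin sequence were rare and clustered near the 3′ end of the tags. Of miR-21-5p tags, 2.77% ± 1.18 held 1 mismatch (SD, n = 7), against 6.78% ± 1.32 of all placed tags. The share was highest in the day 1 library of time course 2, at 5.28%, and 1.80% to 2.78% in the other 6. Changes within the seed occurred in 0.0621% to 0.310% of tags. Over all libraries 91.3% of the mismatches of miR-21-5p fell on the third to the sixth base from the 3′ end of the tag, as did 95.5% of those of all hairpins, and 0 of 728876 tags differed in either of the last 2 bases. The deposited tags therefore gave no measure of non-templated bases added to miR-21-5p, adenine or other. The commonest changes, counted from base 1 of the miRNA with the hairpin's base before and the tag's base after the position, were G18A (0.480% of tags), T19A (0.478%), T17C (0.304%) and T17G (0.204%) over the pooled libraries. The day 1 library of time course 2 sets this order, with 1.89% for G18A and 1.75% for T19A. Without it G18A stood at 0.265%, T19A at 0.284%, T17C at 0.304% and T17G at 0.216%.

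Across the 7 libraries the arms whose log2 CPM ran most like that of miR-21-5p were miR-93-3p (Pearson's r = 0.85), miR-22-5p (0.79), miR-450a-5p (0.79), miR-3102-5p (0.78) and miR-17-5p (0.76), out of 149 other arms with at least 1000 tags in every library. The median r was 0.04 and the lowest -0.79. With Spearman's rho 3 of these 5 stayed among the first 5. The libraries share the scaling to placed tags, and the values are a description. miR-21-3p, from the same hairpin, had r = 0.59 with miR-21-5p.

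Of the miRNAs widely reported to rise in the stressed heart (15 hairpins, mir-21 included), 28 arms were tested and edgeR called 0 of them at day 4 against day 1 (0% of all arms). Their median log2 fold change was 0.10, against 0.03 over all 798 arms. With the time course as a block, 1 of these 28 arms was called, beside 4.51% of all arms, which is near the background. It was miR-24-2-5p, with a log2 fold change of 1.31 (SE 0.32, edgeR adjusted p = 0.0276). Its level was 1612 and 1210 CPM at day 4 (time courses 2 and 1), against 484 and 835 CPM at day 1. Neither 3p arm of the miR-24 hairpins was called in either fit. Without the block miR-24-1-3p was at 0.18 (SE 0.26) and miR-24-2-3p at 0.01 (SE 0.49). Between the time courses 3 of these 28 arms were called, beside 9.90% of all arms, so the count is near the background. miR-221-3p (1.76) and miR-222-3p (1.32) were higher in time course 2, and miR-199a-2-5p (-1.18) was lower, with edgeR adjusted p of 0.0394, 0.00432 and 0.0453. Of the miRNAs widely reported to restrain fibrosis (12 hairpins of the miR-29, miR-30 and miR-133a families), 24 arms were tested and 0 were called at day 4 against day 1, with or without the block, at a median of 0.21. Between the time courses miR-30d-5p (0.70, adjusted p = 0.0125) and miR-30c-2-5p (0.93, adjusted p = 0.0394) were called by edgeR as higher in time course 2, which is 2 of 24 arms beside 9.90% of all arms. The copies of miR-24-3p, miR-199a-5p, miR-30c-5p and miR-450a-5p encode the same mature miRNA, so the value of a single copy is uncertain.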

How the data were processed

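Small RNA libraries of HL-1 cells were analysed, 7 in all, as 4 days of culture in 2 time courses. The deposited tables hold, per the labels and the study's methods, distinct tags and their raw counts, made by the authors with the SOLiD Small RNA Pipeline against miRBase version 16 and the mouse genome (mm9). The deposited counts were summed over repeated tags, and 101 lines with no sequence (293 tags) were left out. Tags of at least 16 nt were placed on 2202 miRNA hairpins of GENCODE vM21 (GRCm38) with at most 2 mismatches and at most 4 bases past an end. Tied tags went to the first hairpin in order of name, and coordinates come from this placement. CPM are counts per 1000000 placed tags.

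Levels were tested with edgeR 4.0.16 (TMM, filterByExpr, quasi-likelihood, day as factor). End forms and arm shares were tested with limma 3.58.1 on log2 odds with a pseudocount of 0.5, taking arms that reached 50 tags in each of the libraries and forms that averaged 10 or more, where a form is 1 start or 1 end position of an arm. All p-values were adjusted by Benjamini-Hochberg over all features, with a threshold of 0.05. DESeq2 1.42.0 was an alternative, and the hairpin was folded with RNAfold 2.7.2. Libraries of the same time course deviated together from the day means (r = 0.37 to 0.38 over 798 arms and 0.29 to 0.35 over 3360 forms, every pair above 0.1), and the time course number marks an independent repeat, so fits with it as a block are given where counts of calls change. On simulated counts with 200 changed features at day 4, edgeR recovered 158 of 200 (798 arms) and limma 178 of 200 (3360 forms). These counts show only that the fits can find planted changes. Recovery was not measured at the sizes of change reported above for the hairpin, nor with libraries that deviate together by time course. The counts therefore give no power for the features that were not called. The days hold 1 or 2 libraries each, and depth per library limits miR-21-3p most, at 137 tags or more.

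The named forms were 3′ ends with at least 1% and 5′ starts with at least 0.1% of miR-21-5p tags, and ends or starts with at least 5% of miR-21-3p tags. Also named were miRNAs that share a seed, the 5 arms most like miR-21-5p, its neighbours in level, and members of the lists past the threshold. The hairpin, the lists and the tests were chosen with earlier results of these data known.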

Additional observations from a re-analysis of the deposited data

Results flagged for a closer look

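The course of miR-21-5p from day 1 to day 3 ran in opposite directions in the time courses, with a log2 fold of day 3 over day 1 of 0.58 (time course 2) and -0.78 (time course 1). The share of miR-21-5p tags ending at base 24 did the same. Day 3 minus day 1 was 2.40 percentage points for time course 2, while time course 1 had -1.89. Day 4 minus day 1 was 3.72 percentage points for time course 2, while time course 1 had -0.72. Each time course has 1 library per day, and none of these differences between time courses was tested.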

How the results depend on the processing

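Under 12 alternatives miR-21-5p at day 4 against day 1 stayed between -0.79 and -0.17 (log2) and miR-21-3p between -1.73 and -0.26, and neither passed 0.05 (edgeR or DESeq2 adjusted p from 0.279 to 0.918 and from 0.0859 to 0.897). The base 22 share stayed between 1.52 and 2.09 and the base 23 share between -2.04 and -1.24 (log2 odds), with limma adjusted p from 0.394 to 0.957 over 13 alternatives that called 0 forms. Of these, the fits on forms with at least 1% of their arm and with a spread that varies with the mean were added after seeing the data. Arms called at day 4 against day 1 numbered 0 in the main fit, 16 with DESeq2, 3 without a filter on low counts, 36 with the replicate block, and 0 to 0 without any 1 library. Between the time courses the count was 79, 39 without TMM and 31 with 0 mismatches, and 0 to 71 without 1 library (0 without day 4 of time course 2, 6 without either day 3 library, 24 without day 1 of time course 2). There miR-21-5p ranged from -0.11 to 0.53 without 1 library, with the sign turned at -0.08, -0.11, -0.02 and -0.10, and the base 24 share from -0.34 to 0.85 (log2 odds), turned at -0.34 and -0.22. Hairpins with a called arm share numbered 1 with a pseudocount of 5, 1 with 0 mismatches, 9 with the replicate block and 0 to 4 without 1 library, and the mir-21 value ran from -1.14 to 0.059, turned without day 4 of time course 2. Differences within libraries kept their call, at 60.9 to 67.0 percentage points for base 23 minus base 22 and 59.6 to 60.9 for the upstream start. The downstream start ran from -1.56 to 0.29. The planned comparison of adenine with other non-templated bases could not be made, since no miR-21-5p tag differed from the hairpin in its last 2 bases. The cause of these changes was not tested.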
